A study of Homo sapiens with 26 samples.

Results

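The response to repression of POU2AF1 was compared between 2 established human lymphoma lines, OCI-Ly7 and SU-DHL-4 (SUDHL4). For every gene, the quantity examined was the change from control to POU2AF1 knockdown in SUDHL4 minus the same change in OCI-Ly7, so that a positive difference means a higher response in SUDHL4. All genes that passed the count filter are covered, 18918 in number, in the 16 of 26 deposited files that belong to the 4 groups involved. Because some files repeat a library, these 16 files are 12 libraries of the 22 in the series.

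Both lines are diffuse large B cell lymphomas of the germinal centre B cell type. All cells compared, controls included, carried a lentiviral catalytically dead Cas9 fused to BFP and the KRAB repressor domain under an SFFV promoter, and each received guide RNAs by a further lentivirus. The 4 groups were OCI-Ly7 with non-targeting guides (4 libraries, of which 1 pools the files numbered 1 and 2, whose sum was deposited as a file labelled 48 h), OCI-Ly7 with guides against POU2AF1 (6 libraries, of which number 3 is labelled 48 h), SUDHL4 with non-targeting guides (1 library) and SUDHL4 with guides against POU2AF1 (1 library). OCI-Ly7 was grown in IMDM and SUDHL4 in RPMI-1640, both with serum, so line and medium cannot be told apart. The labels do not say whether replicates were separate cultures or transductions, so the spread behind the p-values may be technical. That spread was estimated over all 22 libraries of the series, those with guides against POU2F2 included. Each SUDHL4 arm compared is 1 library and adds nothing to it. The p-values for SUDHL4 and for the difference therefore rest on spread among other libraries. With the 12 libraries alone, 77 genes had a different response at an adjusted p below 0.05, against 151 with all 22.

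POU2AF1 encodes OCA-B (also called OBF1 or BOB.1), a coactivator found mainly in B cells that does not bind DNA by itself in the usual way but is recruited to octamer sites by the POU factors OCT1 (POU2F1) and OCT2 (POU2F2). Octamer sites lie in immunoglobulin promoters and enhancers and in other B cell genes. OCA-B is needed for germinal centres, in which B cells proliferate rapidly, mutate their immunoglobulin genes and are held in that state by the repressor BCL6.

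The 12 libraries held 29317267 to 60154198 estimated reads. Mitochondrially encoded genes took 9.76% of the reads of the SUDHL4 control and 12.8% of those of the SUDHL4 knockdown, 7.8% to 13.2% in the OCI-Ly7 controls, and 25.8% in OCI-Ly7 knockdown library 1 against 7.04% to 9.74% in the 5 others. The lines were told apart by their immunoglobulin genes. IGHV4-59 lay between 133 and 166 CPM (estimated reads relative to the TMM-scaled library size) in the 4 SUDHL4 libraries and at or below 0.0884 CPM in the OCI-Ly7 libraries of the groups compared. IGHM lay between 4595 and 6189 CPM in OCI-Ly7 controls, at 21.4 CPM in the SUDHL4 control and at 2.56 CPM in the SUDHL4 knockdown. IGHM was 1 of 12 genes with at least 100 CPM in OCI-Ly7 controls and at most 1% of that level in both SUDHL4 libraries. Their median share of the OCI-Ly7 level was 0.425% in the SUDHL4 control and 0.0764% in the SUDHL4 knockdown, and all 12 were lower in the knockdown. Whether RNA or cells of OCI-Ly7 in the SUDHL4 control account for this was not tested, but 3 of the 12 (IGF2BP1, YBX3 and IGHV1-69D) were called for a lower response in SUDHL4, and the number of calls is 148 without the 12 genes.

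Guides against POU2AF1 lowered their target in both lines. POU2AF1 (chr11:111352252-111455630, minus strand, GRCh38) stood at 445, 455, 446 and 470 CPM in the 4 OCI-Ly7 controls and between 27.3 and 87.9 CPM (median 36.9) in the 6 knockdown libraries. In SUDHL4 it went from 442 CPM (control) to 79.8 CPM (knockdown). The SUDHL4 control was just below the lowest OCI-Ly7 control, and control and knockdown did not overlap in OCI-Ly7. The log2 change was -3.0 ± 0.19 (SE) in OCI-Ly7 (edgeR quasi-likelihood test, adjusted p = 4.6e-08) and -2.47 ± 0.42 in SUDHL4 (adjusted p = 0.0039). The difference between the lines, 0.53 ± 0.44 with a 95% interval from -0.40 to 1.46, did not pass the test (adjusted p = 0.80). The POU partners did not pass it either: the difference was 0.78 for POU2F2 (interval -0.47 to 2.02) and -0.78 for POU2F1 (interval -1.47 to -0.09, adjusted p = 0.39).

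Most of the genes that differed by line rose in SUDHL4 and had no call in OCI-Ly7. At an adjusted p below 0.05, 151 genes (0.798% of those tested) had a different response, 124 higher in SUDHL4 (0.655%) and 27 lower (0.143%). Of the 124, 106 were called as a rise in SUDHL4 with no call in OCI-Ly7. The fitted change in OCI-Ly7 was within 2-fold for 116 of the 124. Only 12 of the 124 were called as a fall in OCI-Ly7, and 4 of these, among them CD22, NCF1 and HYCC1, were also called as a rise in SUDHL4. Of the 27 with a lower response, 24 were called as a fall in SUDHL4 alone. IGHV1-69D, at a trace level in SUDHL4 as described above, was called as a fall in both.

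Taken line by line, the same fit called 154 genes in OCI-Ly7 (0.814%), 48 higher and 106 lower, and 314 in SUDHL4 (1.66%), 210 higher and 104 lower. In this fit falls were the larger class in OCI-Ly7 and rises in SUDHL4, but the SUDHL4 order was not kept with the series marks described below as a block (1331 higher, 1397 lower) or with the SUDHL4 libraries fitted alone (3056 higher, 3191 lower). Of the 210 rises of SUDHL4, 110 were called for a difference and the median change of the 210 in OCI-Ly7 was 0.09 on the log2 scale. Of the 106 falls of OCI-Ly7, 13 were called for a difference, 73 had a negative fitted change in SUDHL4, and their median change there was -0.41. Of the 48 rises of OCI-Ly7, 0 were called for a difference by edgeR, 33 had a positive fitted change in SUDHL4, and their median change there was 0.45. The median standard error of the difference was 0.65 over all genes tested, so a difference of 2-fold was not detectable for most genes. The number of lower differences, 27, moved when 1 library or file was left out: it was 48 without OCI-Ly7 control 7, 13 without control 8, 11 without the pooled control 1 and 2, 17 and 16 without OCI-Ly7 knockdown libraries 5 and 6, and 41 without SUDHL4 knockdown file 2. The 124 higher ones were 78 without the pooled control, and the 104 SUDHL4 falls were 65 without OCI-Ly7 control 8 and 69 without knockdown library 4. The counts lean on single libraries: without the pooled OCI-Ly7 control 1 and 2, the only control of batch 1 in that line, 89 differences and 15 OCI-Ly7 genes were called, and without OCI-Ly7 knockdown library 5 OCI-Ly7 had 86. In batch 1 alone, the only batch with SUDHL4, 22 differences were called (20 higher, 2 lower), and each of the 151 genes kept the sign of its difference there. The excess of higher over lower differences depends on the model: with the series marks of the labels (s0 to s3, whose meaning they do not give) as a block within batch 2, 1951 differences were called, 998 higher and 953 lower, and DESeq2 called 571, 346 higher and 225 lower. The same 2 analyses called 916 and 363 genes in OCI-Ly7 and 2728 and 842 in SUDHL4. All of these alternatives drew on the same single SUDHL4 library of each arm, so kept signs do not test the SUDHL4 side.

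**Figure D1:**
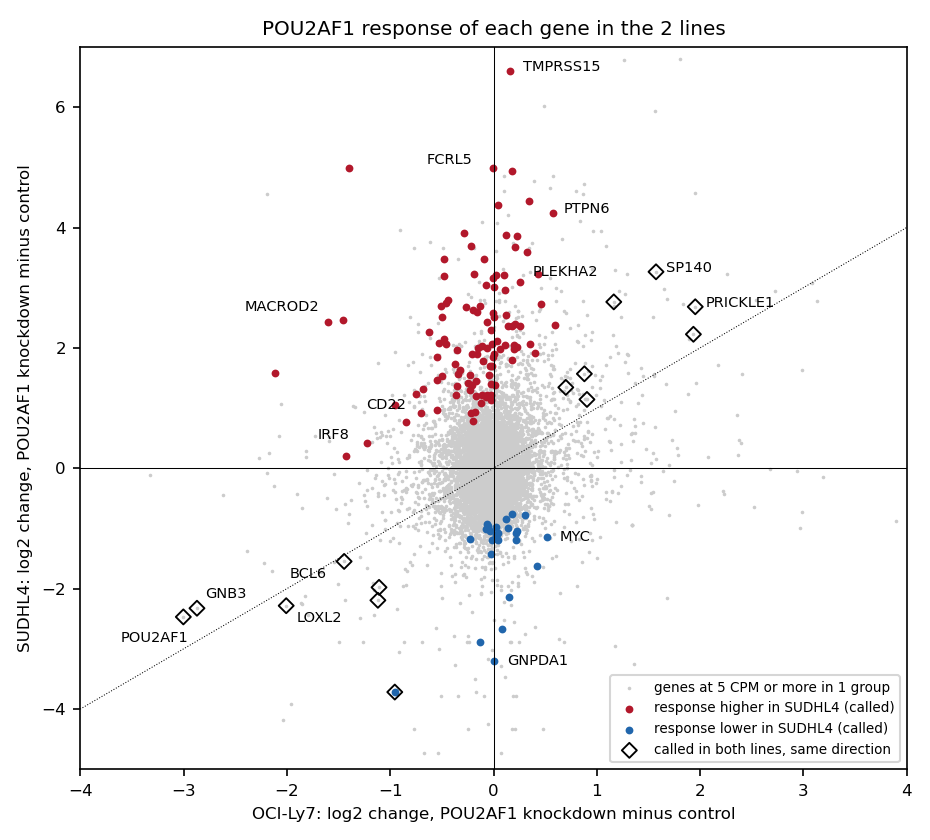
Fitted log2 change after POU2AF1 knockdown in OCI-Ly7 (horizontal) and SUDHL4 (vertical), 1 point per gene with at least 5 CPM in 1 of the 4 groups, with the dotted line where both changes are equal and no gene of the Y chromosome drawn. Red points (response higher in SUDHL4) stand above the horizontal axis near an OCI-Ly7 change of 0, with CD22, IRF8 and MACROD2 to its left, while POU2AF1, GNB3, LOXL2 and BCL6 lie near the dotted line.

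The genes with a higher response in SUDHL4 began from a low level in that line. In the SUDHL4 control, 105 of the 124 were below the mean of the OCI-Ly7 controls and 94 below the lowest of them, whereas 53.2% of all genes tested were below that mean. The median level was 33.6% of the OCI-Ly7 control level in the SUDHL4 control and 130% of it in the SUDHL4 knockdown. After knockdown, 45 of the 124 were still below all OCI-Ly7 controls, 12 within their range and 67 above it. At a minimum of 1 CPM, 86 of the 124 were present in the controls of both lines, 27 in OCI-Ly7 only, 2 in SUDHL4 only and 9 in neither. Of all 18918 genes tested, 11444 were present in both, 1203 in OCI-Ly7 only, 857 in SUDHL4 only and 5414 in neither.

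The genes with a lower response showed another starting point. Their median level was 104% of the OCI-Ly7 control level in the SUDHL4 control and 47.7% of it in the knockdown, and 25 of the 27 were present in the controls of both lines. The control libraries enter both the starting level and the response, and SUDHL4 has a single control library, so the starting level and the response are not independent measurements.

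**Figure D2:**
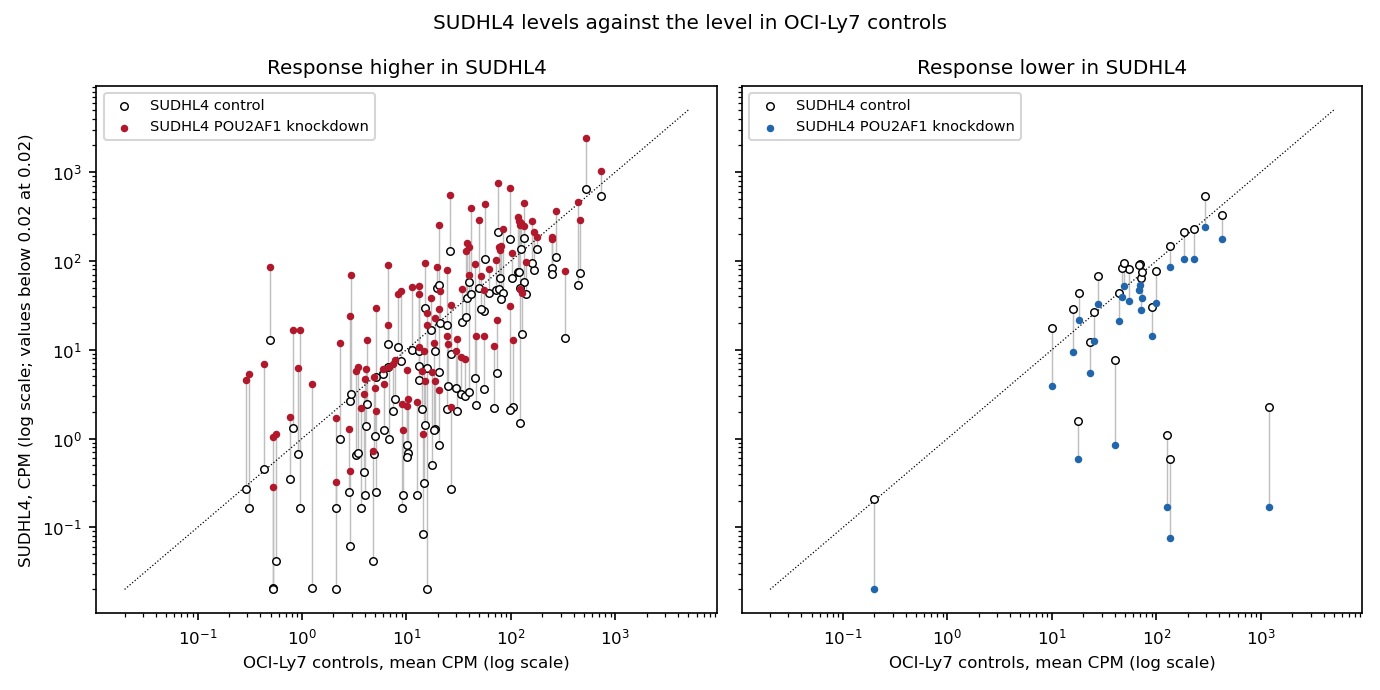
Level in SUDHL4 (vertical, CPM, log scale) against the mean of the OCI-Ly7 controls (horizontal, CPM, log scale) for the genes with a different response, with open circles for the SUDHL4 control, filled circles for the SUDHL4 knockdown and a dotted line where the lines are equal; 1 gene of the Y chromosome is not drawn. Among genes with a higher response most open circles lie under the dotted line, with a median of 33.6% of the OCI-Ly7 level, and the filled circles move towards or over it; among genes with a lower response most filled circles lie under it.

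Genes of the B cell surface and of B cell receptor signalling made up the list with the most calls by number. By share the B lineage markers, with 3 of 10, were ahead of it. Over all genes tested, 124 of 18918 (0.655%) had a higher response in SUDHL4, and this share stands beside the higher calls of every list below. Of 33 tested genes of B cell receptor signalling, 6 had a higher response in SUDHL4 and 0 a lower one (0 also at an unadjusted p below 0.05 by edgeR, by DESeq2 and with the series block), and the median difference of the 33 was 0.65, against -0.01 over all genes tested. PTPN6 encodes SHP-1, the phosphatase that dampens receptor signals. PTPN6 (chr12:6946468-6961316, plus strand) stood at 49.2, 33.4, 57.7 and 40.3 CPM in OCI-Ly7 controls, 41.3 to 83.5 CPM in OCI-Ly7 knockdown (median 62.5), 4.83 CPM in the SUDHL4 control and 91.4 CPM in the SUDHL4 knockdown, a difference of 3.67 ± 0.51 (adjusted p = 0.0011). The OCI-Ly7 groups overlap, while the SUDHL4 control is below and the SUDHL4 knockdown above every OCI-Ly7 library of these groups.

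CD22 and CD72, inhibitory receptors that recruit SHP-1, differed from each other in how OCI-Ly7 behaved. CD22 stood at 682 to 768 CPM in OCI-Ly7 controls and 306 to 571 CPM (median 334) in OCI-Ly7 knockdown, without overlap, and went from 539 CPM to 1019 CPM in SUDHL4. It fell in OCI-Ly7 (log2 change -0.71 ± 0.11, adjusted p = 0.0017) and rose in SUDHL4 (0.92 ± 0.23, adjusted p = 0.047), a difference of 1.62 ± 0.26. CD72 overlapped between control and knockdown in OCI-Ly7 (34.4 to 61.0 CPM and 34.0 to 75.3 CPM) and went from 49.3 to 286 CPM in SUDHL4, a difference of 2.42 ± 0.41. PRKCB encodes the protein kinase C that links the receptor to NF-kB. It was at 97.1 to 126 CPM in OCI-Ly7 controls, at 2.25 CPM in the SUDHL4 control and at 12.9 CPM in the SUDHL4 knockdown, so that its rise in SUDHL4 (difference 2.51 ± 0.38) left it below every OCI-Ly7 library. The tetraspanin CD53 went from 50.03 to 256 CPM in SUDHL4 and overlapped between the OCI-Ly7 groups (difference 2.18 ± 0.32). LCK, a Src family kinase better known from T cells, stood at 211 to 268 CPM in OCI-Ly7 controls and went from 71.2 to 186 CPM in SUDHL4 (difference 1.36 ± 0.23).

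Of the 10 B lineage markers, 3 had a higher response in SUDHL4 (CD22 and PAX5 among them), all 10 had a positive fitted difference, and their summed level went from 2940 to 6957 CPM in SUDHL4 against ranges of 3235 to 4647 CPM in OCI-Ly7 controls and 3065 to 3773 CPM in OCI-Ly7 knockdown. PAX5, the transcription factor that commits cells to the B lineage, stood at 189 to 320 CPM in OCI-Ly7 controls, 214 to 325 CPM in OCI-Ly7 knockdown and went from 112 to 363 CPM in SUDHL4 (difference 1.71 ± 0.34, adjusted p = 0.019). It lost its call in 3 of the 20 alternative analyses and CD53 in none. These analyses all drew on the same single SUDHL4 library of each arm.

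**Figure D3:**
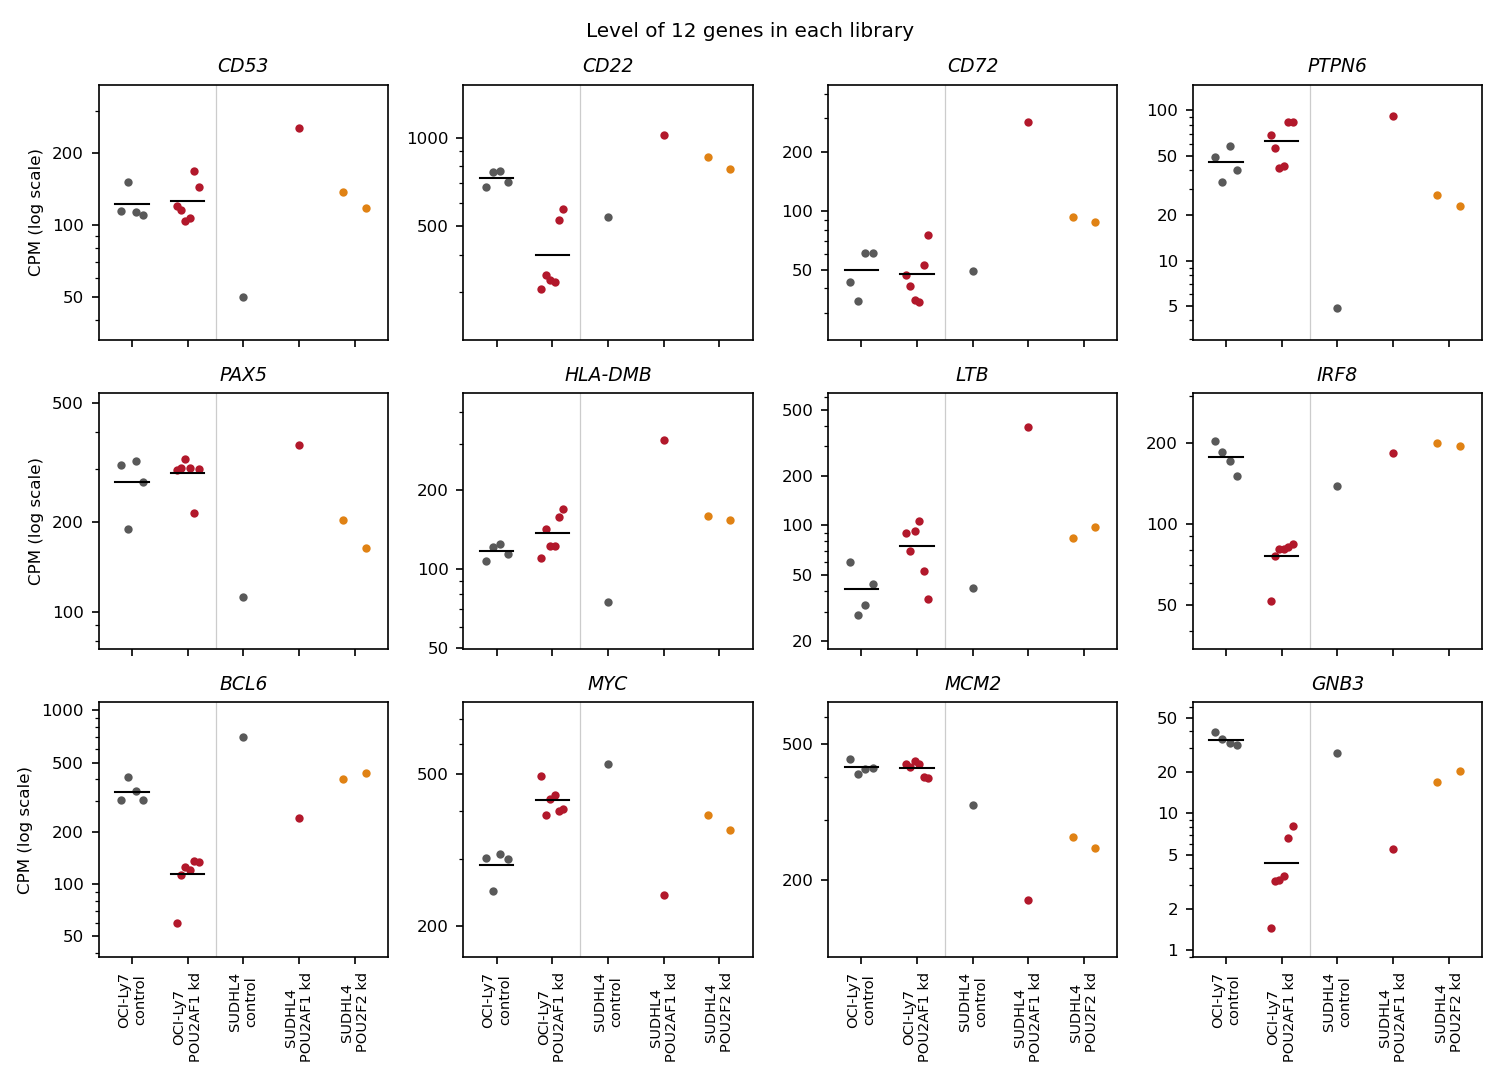
TMM-normalised CPM (vertical, log scale, scaled for each gene) of 12 genes in each library, grouped on the horizontal axis as OCI-Ly7 control, OCI-Ly7 POU2AF1 knockdown, SUDHL4 control, SUDHL4 POU2AF1 knockdown and SUDHL4 POU2F2 knockdown; points are libraries and bars are means of the OCI-Ly7 groups. In the first 2 rows (except IRF8) the SUDHL4 POU2AF1 knockdown is the highest point of its panel, whereas BCL6 and GNB3 are lower after POU2AF1 knockdown in both lines, and MYC lies higher in OCI-Ly7 knockdown and lower in SUDHL4 knockdown.

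Octamer sites in the promoters of the members were looked up because OCA-B acts through them. The letters ATGCAAAT were searched on both strands (as ATTTGCAT on the other) in the RefSeq promoter windows of GRCh38.p14, from 250 bases before to 50 after the start of the gene. They occurred in 191 of 11724 promoters of the genes tested (1.63%), in 3 of the 86 available for genes with a higher response in SUDHL4 (3.49%) and in 0 of the 23 for genes with a lower one. They occurred in 5 of 68 promoters of the genes that fell in OCI-Ly7 (7.35%) and in 1 of 79 of those that fell in SUDHL4 (1.27%). With so few matches these shares are descriptions only. The 3 promoters with a match among the 124 genes are those of HDAC9, CD53 and PRKCB, shown 5′ to 3′ with the octamer in capitals to let its place be seen: HDAC9 (chr7:18495499-18495798, plus strand), CD53 (chr1:110870960-110871259, plus strand) and PRKCB (chr16:23835733-23836032, plus strand). The match begins at -59, -46 and -80, counted from the start of the gene.
HDAC9: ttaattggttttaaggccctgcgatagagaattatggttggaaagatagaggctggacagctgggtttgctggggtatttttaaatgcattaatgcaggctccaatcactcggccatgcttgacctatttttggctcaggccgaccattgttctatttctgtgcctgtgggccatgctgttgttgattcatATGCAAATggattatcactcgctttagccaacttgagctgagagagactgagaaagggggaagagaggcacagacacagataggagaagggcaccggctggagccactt
CD53: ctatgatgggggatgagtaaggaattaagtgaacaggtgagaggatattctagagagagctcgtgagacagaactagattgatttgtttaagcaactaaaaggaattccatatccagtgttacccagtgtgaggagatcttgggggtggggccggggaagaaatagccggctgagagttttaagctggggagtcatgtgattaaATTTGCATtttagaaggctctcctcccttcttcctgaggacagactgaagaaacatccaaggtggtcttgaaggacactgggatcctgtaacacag
PRKCB: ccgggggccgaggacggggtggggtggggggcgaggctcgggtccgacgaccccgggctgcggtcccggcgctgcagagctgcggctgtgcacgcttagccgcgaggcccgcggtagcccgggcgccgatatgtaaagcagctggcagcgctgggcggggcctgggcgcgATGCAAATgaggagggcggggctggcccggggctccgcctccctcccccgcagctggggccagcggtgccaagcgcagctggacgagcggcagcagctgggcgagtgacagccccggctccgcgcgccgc
All 3 genes rose in SUDHL4 and had no call in OCI-Ly7, as did 106 of the 124 genes from which they were taken. HDAC9, a histone deacetylase named here for its promoter after its values were seen, was at 68.5 to 82.1 CPM in OCI-Ly7 controls and went from 5.45 to 21.9 CPM in SUDHL4 (difference 2.16 ± 0.35, adjusted p = 0.0034).

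Genes of germinal centre identity held both a shared fall and differences between the lines. BCL6 (chr3:187721377-187745727, minus strand), the repressor that holds B cells in the germinal centre, stood at 303, 411, 344 and 305 CPM in OCI-Ly7 controls and between 59.8 and 136 CPM (median 123) after knockdown. It went from 703 to 240 CPM in SUDHL4, so its control level there was above every OCI-Ly7 control and its knockdown level above every OCI-Ly7 knockdown library. BCL6 fell in both lines: its log2 change was -1.45 ± 0.18 in OCI-Ly7 (adjusted p = 0.00019) and -1.55 ± 0.37 in SUDHL4 (adjusted p = 0.039), a difference of -0.10 with an interval from -0.95 to 0.75.

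IRF8, a transcription factor that germinal centre B cells need, was called in OCI-Ly7 and not in SUDHL4. It stood at 151 to 204 CPM in OCI-Ly7 controls, 51.4 to 84.0 CPM after knockdown, and 138 and 184 CPM in the SUDHL4 control and knockdown. The fall in OCI-Ly7 was -1.22 ± 0.13 (adjusted p = 7.6e-05), the SUDHL4 change of 0.42 did not pass (adjusted p = 0.64), and the difference was 1.64 ± 0.31 (adjusted p = 0.014).

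Of the 35 genes of germinal centre identity, 3 had a higher response in SUDHL4 than in OCI-Ly7. In OCI-Ly7 8 were called as falls and 0 as rises, and in SUDHL4 1 as a fall and 3 as rises. The median change of the list was -0.40 in OCI-Ly7 and 0.38 in SUDHL4, and that of the difference 0.76. Among 22 genes of naive and memory B cells 0 were called for a difference by edgeR, 9 had an unadjusted p below 0.05, all higher, 2 were called by DESeq2 and 7 with the series block described above, and the median difference was 1.11.

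Antigen presentation through MHC class II differed in the same direction. The list had 17 genes tested, of which 3 had a higher response in SUDHL4 and 0 a lower one (1 at an unadjusted p below 0.05 by edgeR, 0 by DESeq2 and 1 with the series block), 15 a positive difference and a median difference of 1.44. Its summed level went from 4370 to 9953 CPM in SUDHL4, against 3196 to 4378 CPM in OCI-Ly7 controls and 2539 to 4041 CPM in OCI-Ly7 knockdown. HLA-DMB, a chain of the HLA-DM exchanger that loads peptides onto class II, stood at 107 to 124 CPM in OCI-Ly7 controls, at 110 to 169 CPM after knockdown and went from 74.6 to 313 CPM in SUDHL4. The OCI-Ly7 groups overlapped, and the SUDHL4 knockdown was above every OCI-Ly7 library. Its difference was 1.72 ± 0.25 (adjusted p = 0.0018), and that of HLA-DMA, the other chain, 1.61 ± 0.37 (adjusted p = 0.043). HLA-DMA lost its call in 10 of 20 alternatives. HLA-DQB1, a class II chain whose alleles and paralogs can share reads, was at 20.1 to 32.1 CPM in OCI-Ly7 controls and went from 130 to 547 CPM in SUDHL4 (difference 2.53 ± 0.55, adjusted p = 0.032).

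Interferon-stimulated genes, which cells switch on when interferon binds its receptor, had the largest median difference of the 28 lists, 1.93 over 29 tested genes. The median change was 0.14 in OCI-Ly7 and 2.06 in SUDHL4. Of the 29, 5 had a higher response in SUDHL4 (IFIT3, MX2, IFI6, IFI35 and ISG20), 8 rose in SUDHL4, 0 were called in OCI-Ly7 by edgeR, and 24 were lower in the SUDHL4 control than in the OCI-Ly7 controls. In OCI-Ly7, 5 of the 29 had an unadjusted p below 0.05, and DESeq2 and the series block each called 2. ISG20, an RNA exonuclease, stood at 115 to 136 CPM in OCI-Ly7 controls and 85.5 to 103 CPM after knockdown, and went from 15.1 to 43.5 CPM in SUDHL4. Even after its rise it was therefore below every OCI-Ly7 library, and the difference was 2.02 ± 0.28 (adjusted p = 0.0011). IFIT3, which binds viral RNA complexes, went from 0.0208 CPM to 4.06 CPM in SUDHL4 and was at 0.890 to 1.83 CPM in OCI-Ly7 controls and 1.31 to 5.75 CPM after knockdown. The other called members were also at low levels, with 0.978 and 11.8 CPM for IFI6, 0.645 and 5.80 CPM for IFI35 and 0.167 and 2.20 CPM for MX2 in the SUDHL4 control and knockdown. MX2 lost its call in 12 of the 20 alternatives. The summed level of the list, 263 and 530 CPM in the SUDHL4 control and knockdown, did not exceed the range of 534 to 658 CPM in OCI-Ly7 controls.

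Several of the largest higher responses belonged to genes with a mean of at least 5 CPM in the controls of both lines. PLEKHA2 (TAPP2), an adaptor that binds phosphoinositides, stood at 380 to 573 CPM in OCI-Ly7 controls and 438 to 685 CPM after knockdown, and went from 53.5 to 458 CPM in SUDHL4, which brought it into the range of the OCI-Ly7 controls. Its difference was 2.84 ± 0.37 (adjusted p = 0.00055). CNR1, a cannabinoid receptor, was at 249 to 413 CPM in OCI-Ly7 controls and went from 13.5 to 76.9 CPM in SUDHL4, still below them (difference 3.01 ± 0.45). LTB, which encodes lymphotoxin beta, was at 28.8 to 59.8 CPM in OCI-Ly7 controls and 36.1 to 106 CPM after knockdown and went from 42.2 to 393 CPM in SUDHL4 (difference 2.79 ± 0.56). For LTB the starting level of SUDHL4 was within the OCI-Ly7 controls. HVCN1, a proton channel of B cells, went from 11.7 to 91.0 CPM in SUDHL4 (difference 2.85 ± 0.58). GAPT, a B cell adaptor that binds GRB2, went from 6.51 to 41.9 CPM there (difference 2.96 ± 0.53), and LGALS1, a galectin, from 7.47 to 46.2 CPM (difference 2.83 ± 0.62). All 3 lay between 4.24 and 18.9 CPM in every OCI-Ly7 control. NCF1B, NCF1 and NCF1C were all called, with 53 and 255 CPM for NCF1B in SUDHL4, but they are near-identical copies whose reads can be exchanged, so the individual values are uncertain.

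Other members with a higher response were low in 1 or both lines at the start. FCRL5, a B cell receptor of the Fc receptor-like family, was at 76.7 to 166 CPM in OCI-Ly7 controls and went from 1.5 to 47.6 CPM in SUDHL4 (difference 4.99 ± 0.89). SAMD9L, an antiviral gene, was at 12.3 to 17.4 CPM in OCI-Ly7 controls and went from 0.312 to 9.62 CPM in SUDHL4 (difference 4.75 ± 0.84). These approached OCI-Ly7 levels, whereas TMPRSS15 and CD1A exceeded them. TMPRSS15, the enteropeptidase gene, was at 0.602 to 1.4 CPM in OCI-Ly7 controls and went from 0.167 to 16.5 CPM in SUDHL4 (difference 6.44 ± 0.86). CD1A, a lipid-presenting molecule, was at 0.161 to 0.473 CPM in OCI-Ly7 controls and went from 0.167 to 5.39 CPM in SUDHL4. IGLC1, a lambda constant gene, had no read in the SUDHL4 control and 18.9 CPM in the knockdown, at least 304-fold higher when the control is set to 3 counts. Its neighbours are near-identical, so reads may be split among them. It was also at 0 and 0.992 CPM in the 2 SUDHL4 libraries with POU2F2 knockdown.

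The genes with a lower response in SUDHL4 included MYC and genes of DNA replication and division. MYC, the growth-promoting transcription factor, stood at 302, 247, 309 and 300 CPM in OCI-Ly7 controls and between 392 and 496 CPM (median 418) after knockdown, without overlap. In SUDHL4 it went the other way, from 531 to 241 CPM. Neither change passed the test in its own line (0.52 in OCI-Ly7, adjusted p = 0.14, and -1.14 in SUDHL4, adjusted p = 0.054), but the difference of -1.65 ± 0.33 did (adjusted p = 0.017). MCM2, a subunit of the replicative helicase, stood at 410 to 452 CPM in OCI-Ly7 controls and 399 to 446 CPM after knockdown and went from 332 to 174 CPM in SUDHL4 (difference -0.87 ± 0.18, adjusted p = 0.028). DTL, which targets licensing factors for destruction in S phase, went from 77.4 to 33.7 CPM in SUDHL4 and was at 93.6 to 115 CPM in OCI-Ly7 controls (difference -1.24 ± 0.21, adjusted p = 0.0045). The OCI-Ly7 groups of MCM2 and DTL overlapped. BUB1B, a spindle checkpoint kinase, and RAD51AP1, a protein of DNA repair by homologous recombination, were called with -1.15 ± 0.27 and -1.41 ± 0.32, and both lost the call in 15 of 20 alternatives.

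Genes of cell division had mostly negative differences, and how many were called depended on the model. Of 25 S phase genes, 1 was called for a lower response and 1 had a positive difference, with a median of -0.67. Of 25 genes of G2 and M phase, 1 was called and 0 had a positive difference, with a median of -0.78. With the series marks as a block, 13 S phase genes and 17 genes of G2 and M phase were called for a lower response, and DESeq2 called 3 and 5. In SUDHL4, 4 genes of each list fell, against 20 and 23 with the block and 8 and 13 by DESeq2. In OCI-Ly7, edgeR and DESeq2 both called 0 of either list, with an unadjusted p below 0.05 for 2 S phase genes and 0 genes of G2 and M phase; with the block 5 and 0 were called, the 5 as falls. Of 25 MYC targets with MYC itself, 1 was called (MYC) and the median was -0.37.

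Other genes with a lower response were of mixed function. GNPDA1, an enzyme of amino sugar breakdown, stood at 29.6 to 52.5 CPM in OCI-Ly7 controls and 31.7 to 49.0 CPM after knockdown, and went from 7.74 to 0.835 CPM in SUDHL4 (difference -3.22 ± 0.45, adjusted p = 0.0011). This was the largest called lower response among genes with a mean of at least 5 CPM in the controls of both lines. It kept its call in all 20 alternatives, which drew on the same single SUDHL4 library of each arm. SLC7A11, the cystine importer and a target of ATF4, was at 14.6 to 17.5 CPM in OCI-Ly7 controls and 15.2 to 33.3 CPM after knockdown and went from 29 to 9.39 CPM in SUDHL4 (difference -2.05 ± 0.44). NADK2, a mitochondrial NAD kinase, went from 68.1 to 33.0 CPM in SUDHL4 (difference -1.27 ± 0.26), and PTCD2, a mitochondrial RNA-binding protein, from 26.4 to 12.5 CPM (difference -1.30 ± 0.27). The potassium channel gene KCNC4 went from 17.3 to 3.93 CPM there (difference -2.29 ± 0.44). Each of these 3 overlapped between control and knockdown in OCI-Ly7. IGF2BP1 and YBX3, both RNA-binding proteins, went from 0.583 to 0.0759 CPM and from 1.10 to 0.171 CPM in SUDHL4. Both were above 100 CPM in every OCI-Ly7 library of these groups, and both belong to the 12 genes described above. DNAJC6, a cofactor of clathrin uncoating, went from 1.58 to 0.588 CPM in SUDHL4 and was at 16.9 to 19.5 CPM in OCI-Ly7 controls.

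In the main fit the shared genes were few by either count, but the number of genes called in both lines depended on the model. Called in both lines in the same direction were 14 genes (0.074% of those tested), 7 higher and 7 lower. They were 9.09% of the OCI-Ly7 calls, where 1.66% of all genes tested were called in SUDHL4 in either direction. They were 4.46% of the SUDHL4 calls, where 0.814% of all were called in OCI-Ly7. Genes called in both lines numbered 5 without the pooled OCI-Ly7 control and 9 without OCI-Ly7 knockdown library 5, but 55 with DESeq2 and 227 with the series block. With a single library in each arm, the median standard error of the SUDHL4 change was 0.56 over all genes tested. The 7 falls were POU2AF1, BCL6, GNB3, LOXL2, DEPTOR, IGHV1-69D and ENSG00000254343, and the 7 rises PRICKLE1, SP140, AAK1, RUFY3, STK17A, NBPF10 and ENSG00000262488. IGHV1-69D belongs to the trace genes described above, with 2.29 and 0.171 CPM in the SUDHL4 control and knockdown and a mean of 1210 CPM in OCI-Ly7 controls. Whether its SUDHL4 reads come from OCI-Ly7 was not tested. Of the 14, DEPTOR, IGHV1-69D, SP140, AAK1, RUFY3, STK17A, NBPF10 and both genes without a symbol are outside the rule for naming and were named after their values were seen. By size, 86 of 11200 genes with at least 5 CPM in 1 of the 4 groups (0.768%) had fitted changes of 2-fold or more in the same direction in both lines, 55 upwards and 31 downwards, and 0 of them were called for a difference by edgeR, against 9 at an unadjusted p below 0.05, 3 called by DESeq2 and 10 with the series block. For only 2 of the 55 and 2 of the 31 did the unadjusted 95% interval of the difference stay within 2-fold. These genes were picked by their fitted changes in the same data, so the intervals do not show an equal response.

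GNB3 (chr12:6839954-6847393, plus strand), a G protein beta subunit, was called as a fall in both lines. It stood at 39.4, 34.9, 32.6 and 31.7 CPM in OCI-Ly7 controls and between 1.46 and 8.10 CPM (median 3.38) after knockdown, and went from 27.6 to 5.50 CPM in SUDHL4. Controls and knockdown did not overlap in OCI-Ly7, and both levels of SUDHL4 were close to those of OCI-Ly7. Its log2 change was -2.87 ± 0.26 in OCI-Ly7 (adjusted p = 7.9e-06) and -2.33 ± 0.58 in SUDHL4 (adjusted p = 0.048). LOXL2, a lysyl oxidase that crosslinks collagen, was at 29.6 to 40.9 CPM in OCI-Ly7 controls and 4.47 to 11.7 CPM after knockdown and went from 87.4 to 17.9 CPM in SUDHL4. The changes of LOXL2 were -2.01 ± 0.17 and -2.29 ± 0.36. DEPTOR, an inhibitor of mTOR, was at 91.4 to 119 CPM in OCI-Ly7 controls and 36.7 to 58.5 CPM after knockdown and went from 87.1 to 22.1 CPM in SUDHL4.

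WNT5A, a secreted ligand, MYH11, a smooth muscle myosin, and FBP1, an enzyme of gluconeogenesis, fell in OCI-Ly7 and did not pass the test in SUDHL4. MYH11 was at 73.1 to 85.9 CPM in OCI-Ly7 controls and 6.07 to 32.1 CPM after knockdown, with 7.26 and 1.54 CPM in the SUDHL4 control and knockdown (adjusted p = 0.077 there). WNT5A was at 8.13 to 14.6 CPM and 1.62 to 5.44 CPM in OCI-Ly7, and at 3.0 and 0.550 CPM in SUDHL4 (adjusted p = 0.054 there). FBP1 was at 43.8 to 98.9 CPM and 9.36 to 22.3 CPM in OCI-Ly7, and at 0.333 and 0.0190 CPM in SUDHL4, a low level already in the control. For COL5A1 and ARHGEF28, a collagen chain and a guanine nucleotide exchange factor, neither line passed the test. ARHGEF28 was at or below 0.227 CPM in OCI-Ly7 and at 35.4 and 7.42 CPM in SUDHL4, and COL5A1 spread from 4.65 to 95.8 CPM within the OCI-Ly7 controls.

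One gene past 2-fold downwards in both fits held the octamer in its promoter, SERPINA9 (chr14:94476148-94476447, minus strand), a serpin of germinal centre B cells, named after its values were seen. The window holds the octamer at 2 places, and it is shown 5′ to 3′ on the strand of the gene with both in capitals.
SERPINA9: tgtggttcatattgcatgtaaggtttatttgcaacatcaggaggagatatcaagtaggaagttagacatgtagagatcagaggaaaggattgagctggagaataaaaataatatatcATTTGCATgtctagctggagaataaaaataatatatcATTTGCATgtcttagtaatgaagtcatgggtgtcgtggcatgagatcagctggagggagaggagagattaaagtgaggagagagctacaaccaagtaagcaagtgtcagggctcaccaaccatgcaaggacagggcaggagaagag
SERPINA9 was at or below 0.268 CPM in all OCI-Ly7 libraries compared, so its fitted fall there rests on almost no reads. It went from 93.9 to 20.5 CPM in SUDHL4 and did not pass the test there (adjusted p = 0.22).

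Among the shared rises, PRICKLE1, a planar cell polarity protein, was called in both lines. It was at 0.234 to 0.587 CPM in OCI-Ly7 controls and 1.28 to 2.41 CPM after knockdown, and went from 7.59 to 48.8 CPM in SUDHL4. The groups of OCI-Ly7 did not overlap, but the levels of the lines differed widely: the log2 changes were 1.95 ± 0.22 (adjusted p = 8.8e-05) and 2.68 ± 0.41 (adjusted p = 0.0016). SP140, a chromatin reader of lymphocytes, was at 4.17 to 7.24 CPM in OCI-Ly7 controls and 10.2 to 22.5 CPM after knockdown and went from 9.61 to 92.4 CPM in SUDHL4. STK17A, a kinase of the death-associated family, was at 26.7 to 39.8 CPM in OCI-Ly7 controls and 37.9 to 115 CPM after knockdown, with overlap, and went from 118 to 351 CPM in SUDHL4. RUFY3 was at 30.5 to 39.2 CPM and 59.5 to 71.0 CPM in OCI-Ly7, and its 30.9 and 68.3 CPM in the SUDHL4 control and knockdown were within those ranges.

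The other named rises past 2-fold in both lines were near the limit of detection in 1 line. VPREB1, a surrogate light chain of pre-B cells, was at 0.0757 to 0.522 CPM in OCI-Ly7 controls and 0.508 to 3.09 CPM after knockdown and went from 4.22 to 29.5 CPM in SUDHL4. SMIM14 was at 0.0978 to 0.966 CPM and 0.384 to 4.47 CPM in OCI-Ly7 and went from 24.4 to 229 CPM in SUDHL4. CEMIP2, a hyaluronidase, was at 1.23 to 4.43 CPM and 6.41 to 12 CPM in OCI-Ly7, without overlap, and went from 0.333 to 7.97 CPM in SUDHL4. None of the 3 passed the test in either line. CCL3L3, FUT7 and SOWAHD stayed at or below 0.851 CPM in all OCI-Ly7 libraries of these groups and reached between 6.22 and 7.21 CPM in the SUDHL4 knockdown, and CCL3L3 has near-identical copies. PRSS2 rose in OCI-Ly7 but had no read in the SUDHL4 control and 0.0190 CPM in the knockdown, so it gives no fold change there.

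Opposite fitted changes of 2-fold or more were found for 14 of the 11200 genes (0.125%), 10 of them higher in SUDHL4 and 4 lower. Of the 10, 4 were called for a difference, among them MACROD2, CD1A and ENSG00000261606, the last named after its values were seen. MACROD2, an ADP-ribose hydrolase, was at 5.0 to 12.5 CPM in OCI-Ly7 controls and 0.672 to 5.37 CPM after knockdown, and at 0.229 and 1.25 CPM in SUDHL4. It fell in OCI-Ly7 (adjusted p = 0.0056), and the difference was 4.04 ± 0.78 (adjusted p = 0.015). CPLX3, a complexin, was at 1.00 to 2.44 CPM and at most 0.512 CPM in OCI-Ly7 and at 0.291 and 6.92 CPM in SUDHL4, and its difference did not pass (adjusted p = 0.21). The pseudogenes USP32P1 and ITGB1P1 share sequence with expressed genes, were at 0 in 1 or more libraries, and did not pass. This count was 29 without the pooled OCI-Ly7 control, 23 without OCI-Ly7 knockdown library 5 and 27 without library 6.

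Of the 28 gene lists, 13 held at least 1 member called for a difference. Besides those above, the list of ATF4 and amino acid response had 1 lower call of 21 (SLC7A11). Ribosomal protein genes had a positive difference in 39 of 39 and a median of 0.47, with 0 called by edgeR or DESeq2, and 2 at an unadjusted p below 0.05 or with the series block. Among markers of other cells, the 9 tested myeloid markers summed to 3.06 CPM in the SUDHL4 control, 25.7 CPM in the SUDHL4 knockdown and 7.04 to 11.7 CPM in OCI-Ly7 controls. Most of that rise is MS4A7, which went from 1.31 to 16.8 CPM (difference 3.47 ± 0.62). The 15 tested T and NK cell markers summed to 121 and 239 CPM in the SUDHL4 control and knockdown, of which LCK made up 71.2 and 186 CPM, and to 411 to 485 CPM in OCI-Ly7 controls. In the OCI-Ly7 controls LCK had a mean of 245 CPM, TRBC2 of 104 CPM, ZAP70 of 33.9 CPM and TRAC of 31.1 CPM. CD28 and LAT had means of 19.5 and 12.4 CPM there. CD3E, CD3G and CD247, chains of the T cell receptor complex, had means of 1.14, 0.154 and 1.37 CPM. In SUDHL4, without a call, CD247 went from 35.1 CPM in the control to 10.5 CPM in the knockdown, and TRAC from 3.62 to 27.1 CPM. TRBC2, a T cell receptor constant gene, rose in OCI-Ly7 to a mean of 179 CPM (log2 change 0.75 ± 0.15, adjusted p = 0.017). TRBC2, ZAP70, TRAC, CD28, LAT, CD247, CD3E and CD3G are named after their values were seen. The part of other cells in these results was not tested.

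**Figure D4:**
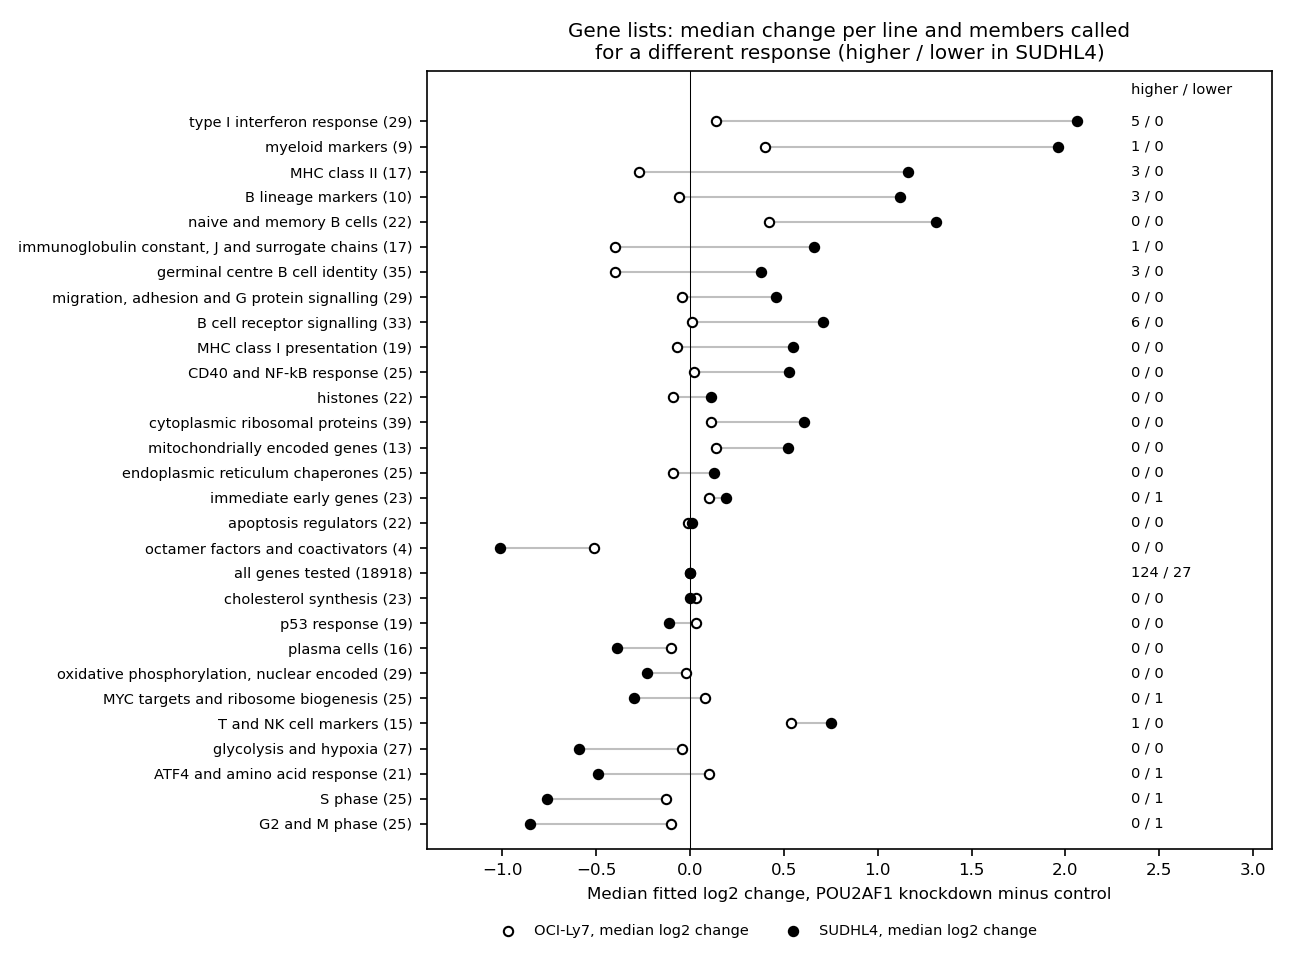
Median fitted log2 change after POU2AF1 knockdown in OCI-Ly7 (open circles) and SUDHL4 (filled circles) for 28 gene lists and all genes tested, ordered by the median difference, with the number of tested members after each name and the members called for a higher or lower response in SUDHL4 at the right. The type I interferon list has the widest gap (0.14 and 2.06), and the lists of S phase and of G2 and M phase have lower medians in SUDHL4 than in OCI-Ly7.

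SUDHL4 libraries with guides against POU2F2, the DNA-binding partner, share the single SUDHL4 control, so they are given only beside the values above. PTPN6 stood at 27.2 and 23.0 CPM in the 2 POU2F2 knockdown libraries, with the control at 4.83 CPM and at 91.4 CPM after POU2AF1 knockdown. CD53 stood at 137 and 118 CPM, LTB at 84.0 and 98.1 CPM, and HLA-DMB at 159 and 154 CPM. For each of these 4 genes the POU2F2 knockdown libraries lay between the control and the POU2AF1 knockdown. MYC stood at 391 and 357 CPM and BCL6 at 405 and 438 CPM, again between the control and the POU2AF1 knockdown. POU2AF1 itself stood at 539 and 502 CPM in these libraries, above the control at 442 CPM, and IRF8 at 199 and 195 CPM, above both.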

How the data were processed

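Libraries were paired-end and made with a stranded TruSeq mRNA kit, per the labels' protocols. The submitters' processing notes name fastp, Salmon 1.5.1 and GRCh38.p13, without their settings. The transcript annotation is not given in the sources used here. The deposited files give estimated counts per transcript, which were used, and TPM, which the authors also deposited and which was not used. Of 227912 transcripts, 205964 were matched to GENCODE release 29 (98.4% to 98.9% of reads), summed per gene over 58592 genes and rounded; 58201 genes had a current symbol (others keep their identifier), and gene coordinates are those of GENCODE.

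Files of a group that differed by about the sampling noise were pooled: 3 pairs with ratios of 1.12 to 1.13 of observed to sampling variance (limit 1.5), against 2.53 or more for pairs of separate libraries. OCI-Ly7 control file 3 adds up files 1 and 2, to 2 reads or closer in 92.9% of 26871 genes, and was dropped. This leaves 22 libraries.

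All 22 were fitted together with edgeR 4.0.16 in R 4.3.3 (TMM, filterByExpr with a minimum count of 10, batch term, robust quasi-likelihood test). A gene was called where its p, adjusted by Benjamini-Hochberg over 18918 genes, was under 0.05. The POU2F2 knockdown libraries serve only to estimate the spread. The lone SUDHL4 libraries have no replicate and are assumed to vary like the others, with a biological coefficient of variation of 0.298. Alternatives were: leaving out each OCI-Ly7 library or SUDHL4 file in turn, the filter, the normalisation (RLE), the 12 libraries alone, batch 1 alone, the series mark of batch 2 as a block, each line alone, DESeq2 1.42.0 and, chosen after seeing the data, leaving out genes at 1% or less of their OCI-Ly7 control level in both SUDHL4 libraries. The fit and the pooling were tested on simulated data. Of 40 genes simulated at each log2 difference, the fit called 34 at 4, 18 at 2, 1 at 1, 0 at -1 and 28 at -2. There were 7 false calls. The SUDHL4 counts were simulated with the same fitted spread, so this cannot test whether the lone SUDHL4 libraries vary like the others.

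Genes named are POU2AF1, POU2F1, POU2F2 and BCL6; the 8 largest differences each way with at least 5 CPM in the controls of both lines and up to 5 others each way; the 8 largest shared falls and rises and the 4 largest opposite changes of 2-fold or more; and members of 28 lists called for a difference. Names that are clone-based, LINC or variable segments were left out of the ranked ones, which needed 5 CPM in 1 group mean. Some genes that the rule takes are not reported here. The members and lists were chosen with earlier results of these data known.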

Additional observations from a re-analysis of the deposited data

Results flagged for a closer look

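By the interaction test of edgeR the response differed between the lines for 43 of the 65 named genes, against 151 of all 18918 tested (0.798%). Many genes were named because this test called them, so the 43 are no separate result. Given as log2 differences, SUDHL4 minus OCI-Ly7, the 13 lower ones were -3.22 for GNPDA1, -2.76 for IGF2BP1, -2.75 for YBX3, -2.29 for KCNC4, -2.05 for SLC7A11, -1.65 for MYC, -1.41 for RAD51AP1, -1.4 for DNAJC6, -1.30 for PTCD2, -1.27 for NADK2, -1.24 for DTL, -1.15 for BUB1B and -0.87 for MCM2. The higher ones below 2.6 were 1.36 for LCK, 1.61 for HLA-DMA, 1.62 for CD22, 1.64 for IRF8, 1.71 for PAX5, 1.72 for HLA-DMB, 2.02 for ISG20, 2.18 for CD53, 2.42 for CD72, 2.51 for PRKCB and 2.53 for HLA-DQB1. The others were 2.79 for LTB, 2.83 for LGALS1, 2.84 for PLEKHA2, 2.85 for HVCN1, 2.89 for NCF1B, 2.96 for GAPT, 3.01 for CNR1, 3.17 for IFI35, 3.27 for IFI6, 3.47 for MS4A7, 3.67 for PTPN6, 3.80 for MX2, 4.04 for MACROD2, 4.75 for SAMD9L, 4.99 for FCRL5, 5.67 for IFIT3, 6.39 for CD1A, 6.44 for TMPRSS15 and 13.21 for IGLC1. The value of IGLC1 is fitted against a control with no read, so its size depends on the prior count and only the bound given above can be read.

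In 15 of 130 groups of 4 or 6 OCI-Ly7 libraries, 1 library stood apart from the rest. The limit used flags about 1 in 20 groups when values are independent and normally spread. These groups mix both batches and the same libraries recur for every gene, so that rate may not hold here. Of the controls, the libraries that stood apart were number 7 for MYC (247 CPM), DTL (115 CPM) and CD53 (151 CPM), number 8 for PRKCB (126 CPM) and the pooled 1 and 2 for SMIM14 (0.966 CPM). Of the knockdown libraries these were number 1 for BCL6 (59.8 CPM), IRF8 (51.4 CPM), VPREB1 (3.09 CPM) and IFI6 (6.38 CPM), number 3 for CCL3L3 (0.422 CPM), number 4 for MS4A7 (0.685 CPM), number 5 for PAX5 (214 CPM), and number 6 for COL5A1 (27.7 CPM), LGALS1 (8.71 CPM) and FCRL5 (189 CPM). Library 1 is the one with 25.8% mitochondrial reads, and its part in these values was not tested.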

How the results depend on the processing

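All 151 genes called for a difference kept its sign in each of the 20 alternative analyses of all genes, DESeq2 included. Each of these drew on the same single SUDHL4 library of each arm, so the kept signs do not test whether the SUDHL4 change would recur. The number called was 77 (67 higher, 10 lower) with the 12 libraries alone, 22 in batch 1 alone, 1951 (998 higher, 953 lower) with the series block, which kept all 151, and 571 (346 higher, 225 lower) with DESeq2, which kept 148. Genes called in OCI-Ly7 numbered 97, 22, 916 and 363 in the same order, and those in SUDHL4 174, 135, 2728 (1331 higher, 1397 lower) and 842, with 158 without a filter and 6247 (3056 higher, 3191 lower) with SUDHL4 alone, where 1 residual degree of freedom is left. Called in both lines were 6 in batch 1 alone, 227 with the series block and 55 with DESeq2. Past 2-fold in both lines were 154 in the same and 50 in opposite directions in batch 1 alone. Leaving out single libraries or single SUDHL4 files gave 89 to 194 differences (78 to 157 higher, 11 to 48 lower), 15 to 189 OCI-Ly7 and 248 to 403 SUDHL4 genes, 5 to 21 called in both, and 79 to 107 in the same and 11 to 29 in opposite directions past 2-fold. Without OCI-Ly7 knockdown library 5, 86 OCI-Ly7 genes and 9 genes in both lines were called, and without library 6, 27 were opposite past 2-fold. The share of promoters with a match among the genes with a different response was 2.75% of 109 for the octamer and 8.26% for its core, ATGCAA. The cause of these shifts was not tested.

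Of 43 named genes called for a difference, 7 kept the call in batch 1 alone, 30 without the pooled OCI-Ly7 control, and 43 with the series block and with DESeq2. The difference changed sign only for genes without a call. In batch 1 alone it became 0.01 for BCL6, 0.08 for MYH11, -1.12 for VPREB1, -4.39 for SOWAHD, 0.34 for PRSS2 and -3.54 for CCL3L3. With the series block it became -0.36 for VPREB1, 0.23 for FUT7, -0.56 for SOWAHD and -0.08 for CCL3L3. Without the pooled OCI-Ly7 control it became -0.04 for POU2AF1, -0.15 for GNB3, -0.12 for SMIM14, 0.86 for FUT7 and 0.39 for ARHGEF28. Leaving out single OCI-Ly7 knockdown libraries, other OCI-Ly7 controls or SUDHL4 files gave -1.27 to 0.62 for FUT7 (positive at 0.12, 0.02, 0.62, 0.19, 0.19, 0.02 and 0.10), -1.16 to 0.75 for SOWAHD (negative at -1.16, -0.33 and otherwise positive), -3.14 to 0.45 for PRSS2 (positive at 0.24 and 0.45), -0.52 to 0.6 for VPREB1 (negative at -0.52 and -0.09) and -1.12 to 0.51 for CCL3L3 (negative at -1.12 and -0.13). It became 0.06 for FUT7 without a filter and -0.01 for SOWAHD with DESeq2.

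No paired analysis was possible because the OCI-Ly7 control files that share numbers with knockdown files are 1 library and each SUDHL4 arm is 1 library, so fewer than 2 pairs share a replicate number. The series marks join control and knockdown libraries of batch 2 in another way, which is the series block above. Depth limits genes below about 1 CPM most, and the single SUDHL4 libraries limit every difference.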

Other observations

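Several lists of metabolism and cell state held 0 genes called for a difference by edgeR. MHC class I presentation, which shows peptides to killer T cells, had 18 positive differences of 19 and a median of 0.63, with 7 higher at an unadjusted p below 0.05 and 3 called by DESeq2 and 10 with the series block. In SUDHL4 edgeR called 2 of the 19 as rises, and the summed level went from 2071 to 3113 CPM there, against 3228 to 4188 CPM in OCI-Ly7 controls. Glycolysis and hypoxia genes had a median difference of -0.46 with 5 positive differences of 27, 1 at an unadjusted p below 0.05 (higher), 0 called by DESeq2, and 1 higher and 7 lower called with the series block. The nuclear genes of oxidative phosphorylation had 3 positive differences of 29 and a median of -0.2, with 1 at an unadjusted p below 0.05 (lower), 0 called by DESeq2, and 1 higher and 2 lower with the series block. The 23 genes of cholesterol synthesis had a median of -0.07 and 0 genes at an unadjusted p below 0.05 or called by DESeq2 or with the series block.

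Plasma cell genes, which replace the germinal centre programme when B cells become antibody-secreting cells, had a median difference of -0.14 over 16 tested members. Of these, 4 had an unadjusted p below 0.05 (3 higher, 1 lower), DESeq2 called 0, and the series block 3 higher and 2 lower. Genes of the p53 response had a median of -0.09 over 19, with 3 at an unadjusted p below 0.05 (2 higher, 1 lower), 0 called by DESeq2, and 1 each way with the series block.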
